A study of Bos taurus with 64 samples.

Results

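The LT (Longissimus thoracis), a support muscle of the back, was compared between 8 stressed Normand cows and 8 Normand cows handled with limited stress, all of them finished on the EP diet. These 16 arrays were taken by the tissue, the diet and the slaughter condition of their labels, out of 64 arrays of 32 cows. The EP diet was a straw and concentrate ration with 40 g of lipids per kg of dry matter from extruded linseeds and rapeseeds, to which vitamin E and PERP, a mixture of plant extracts rich in polyphenols, were added (the label is Lipid VitE PERP). The control diet was the same lipid-rich ration without these antioxidants. All cows were finished for about 101 d, were slaughtered at about 4.5 years of age in the same experimental slaughterhouse without electrical stimulation, and had their muscles excised within 15 min. The stressed cows (moderated stress in the labels) were transported alone to an unfamiliar farm and spent 30 min in a labyrinth there. The cows of the limited stress condition were handled calmly and transported with a companion. The model is thus a mixed emotional and physical load in adult cull cows bought from several farms, with a single sample of each muscle per cow, so that the p-values below measure the spread between cows. Within a diet the cows of the 2 conditions were different animals.

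Muscle answers such a load through hormones and through its own contraction. Cortisol binds the glucocorticoid receptor, which switches on genes such as CEBPD and PDK4. Adrenaline binds beta-adrenergic receptors and raises cyclic AMP. Contraction and growth signals switch on immediate early genes, whose products include the FOS and JUN subunits of the transcription factor AP-1, while the myogenic factors MYOD1, MYF5, MYOG and MYF6 set the muscle program and respond to nerve activity. Vitamin E is a fat-soluble antioxidant that protects membrane lipids.

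The arrays carried 60-base probes, and those on which the largest differences rest are shown here as the files give them. The first group holds single probes of PDK4, FOS and MYOG, the named genes that opened the list in each direction. A probe of Target334 follows, a set without a gene name in the files, with the 20 bases of the forward CEBPD primer of the study's qPCR in capitals. The last group holds 1 probe of each of 3 transcripts that were left without a gene name here.
PDK4: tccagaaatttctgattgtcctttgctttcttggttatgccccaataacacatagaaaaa
FOS: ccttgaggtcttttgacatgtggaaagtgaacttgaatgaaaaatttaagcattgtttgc
MYOG: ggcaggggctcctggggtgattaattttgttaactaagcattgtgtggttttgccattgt
Target334: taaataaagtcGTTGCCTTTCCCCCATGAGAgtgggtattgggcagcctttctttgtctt
Target1414: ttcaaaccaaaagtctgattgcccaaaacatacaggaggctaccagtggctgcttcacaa
Target1097: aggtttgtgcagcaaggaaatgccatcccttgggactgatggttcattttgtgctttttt
A_73_120319: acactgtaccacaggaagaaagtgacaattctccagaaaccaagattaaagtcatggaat
On the build Btau_3.1 of the array files, the PDK4 probe lay at chr4:13136666-13136725 on the minus strand, the FOS probe at chr10:88963194-88963253 on the plus strand and probe A_73_120319 at chr16:59128999-59129058 on the minus strand. Whether a probe lies in coding sequence or elsewhere in its transcript was not analysed here.

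Stress changed the level of 50 of the 4311 transcripts tested in the LT on the EP diet (1.16%), 36 upward (0.835%) and 14 downward (0.325%). The split depended on the scaling, with 8 higher and 7 lower when the arrays were scaled to their control features and 39 higher and 8 lower without scaling. A transcript was called differentially expressed when 80% or more of its tested probes moved one way with a Benjamini-Hochberg adjusted p below 0.1 (limma, over 10441 probes). At the level of single probes, 150 passed the adjusted threshold and 770 (7.37%) had an unadjusted p under 0.05. Of the 50 transcripts, 36 bore a gene symbol and stood for 27 genes, 21 higher and 6 lower, with Target334 left out of these 36. The fitted sizes ranged from 0.32 to 3.30 on the log2 scale, the upper end from a probe near background in most stressed cows, with a median log2 fold change (FC) of 1.40 among the higher and -0.57 among the lower transcripts. The 8 stressed and the 8 limited stress cows did not overlap for 16 of the 50, and over all tested transcripts this held for 21 (0.487%). The median of all 4311 transcripts was -0.04, and 38.6% of them lay above 0. With the transcripts of a symbol joined, 41 of 3545 genes were called (1.16%), 28 higher (0.79%) and 13 lower (0.367%), which is the background for the gene lists below.

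The arrays of the groups differed somewhat in quality. The 75th percentile of the signal, by which each array was divided, lay between 3150 and 3840 units in the stressed and between 2760 and 3780 units in the limited stress cows. The share of probes well above background had a median of 76.6% (73.1% to 80.8%) in the stressed and 78.9% (75.9% to 80.9%) in the limited stress cows. Outlier spots numbered 1 to 60 (median 31) per array under stress and 0 to 43 (median 7) under limited stress, and the median signal of the control features was 2.11 to 6.19 (median 3.14) against 1.73 to 3.56 (median 2.55) units. The part of these differences in the results was not tested. Each array correlated with the median LT array at 0.989 or more. Each of 4 slides and each of 2 scan days held cows of both groups, with 2 stressed and 4 limited stress cows on slide 6, and 30.8% of the tested probes differed between slides. The period, a factor of the study's own model, is not in the labels used here and was not tested. In all 4 slides, 48 of the 50 transcripts moved the same way, a count that is raised by having chosen them on these same arrays. Slides 5 and 7 held 1 limited stress cow each, so the values within these slides rest on that cow. The summed signals of slow and of fast fibre markers were high in every cow, as for a mixed muscle. Single members were lower, with medians under stress and limited stress of 0.774 and 0.665 for MYH4 and 0.964 and 0.724 for ATP2A2. The 6 slow fibre markers measured summed to between 223.9 and 310.5 times the 75th percentile in the stressed and to between 210.0 and 293.5 in the limited stress cows, and the 6 fast fibre markers to between 279.6 and 369.5 against between 284.2 and 395.6. Among the 4 blood genes measured, AHSP, the chaperone of alpha haemoglobin, was well above background in 16 of the 16 cows (log2 FC -0.20), the haemoglobin gene HBB in 5, ALAS2 in 1 and SLC4A1 in 0. Of the 2 leukocyte genes, PTPRC was above it in 16 of 16 (0.05) and ITGAM in 0. None of the markers of fibre type, blood, fat, endothelium, leukocytes, satellite cells or fibroblasts was differentially expressed. For their summed signals the lowest two-sided exact permutation p was 0.0597 (adjusted 0.478 over 8 lists), for the satellite cell markers. In whole muscle, fewer cells of a type and less RNA per cell cannot be told apart.

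The largest increase was that of PDK4, the kinase that inhibits pyruvate dehydrogenase and so spares glucose when fat is burned. Its signal, given here and below as a multiple of the 75th percentile of the array, ranged from 1.56 to 5.85 (median 2.97) in the 8 stressed cows and from 0.148 to 0.862 (median 0.320) in the 8 limited stress cows. Every stressed cow was above every limited stress cow. The log2 FC was 3.18 ± 0.47 (SE, n = 8 per group; limma adjusted p = 0.000123), and a separate set of 5 probes gave 3.04 ± 0.44. PFKFB3, which makes the strongest activator of phosphofructokinase in glycolysis, ranged from 5.06 to 47.3 (median 21.6) in the stressed and from 2.62 to 14.0 (median 3.86) in the limited stress cows. In this case 7 of the 8 stressed cows exceeded all limited stress cows, and 1 stressed cow lay within their range. The log2 FC of PFKFB3 was 1.98 ± 0.39 (adjusted p = 0.00385) and 2.14 ± 0.41 with its set of 5 probes.

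No other gene of these pathways passed the test. Among 16 tested genes of the switch to fat oxidation PDK4 was the sole gene called, and the other members, which include CPT1B, the carnitine palmitoyltransferase of muscle, and UCP3, lay between -0.11 and 0.27. Of 23 tested genes of glucose uptake, glycogen and glycolysis only PFKFB3 was called. The list had a median log2 FC of -0.07 against -0.04 over all transcripts, and LDHA, PYGM and GAPDH stood at -0.05, -0.12 and -0.04. The glucose transporter SLC2A3 had the lowest value of that list, -0.57, with a lowest adjusted p of 0.217. PDK2, another kinase of pyruvate dehydrogenase, had a log2 FC of 0.13.

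**Figure D1:**
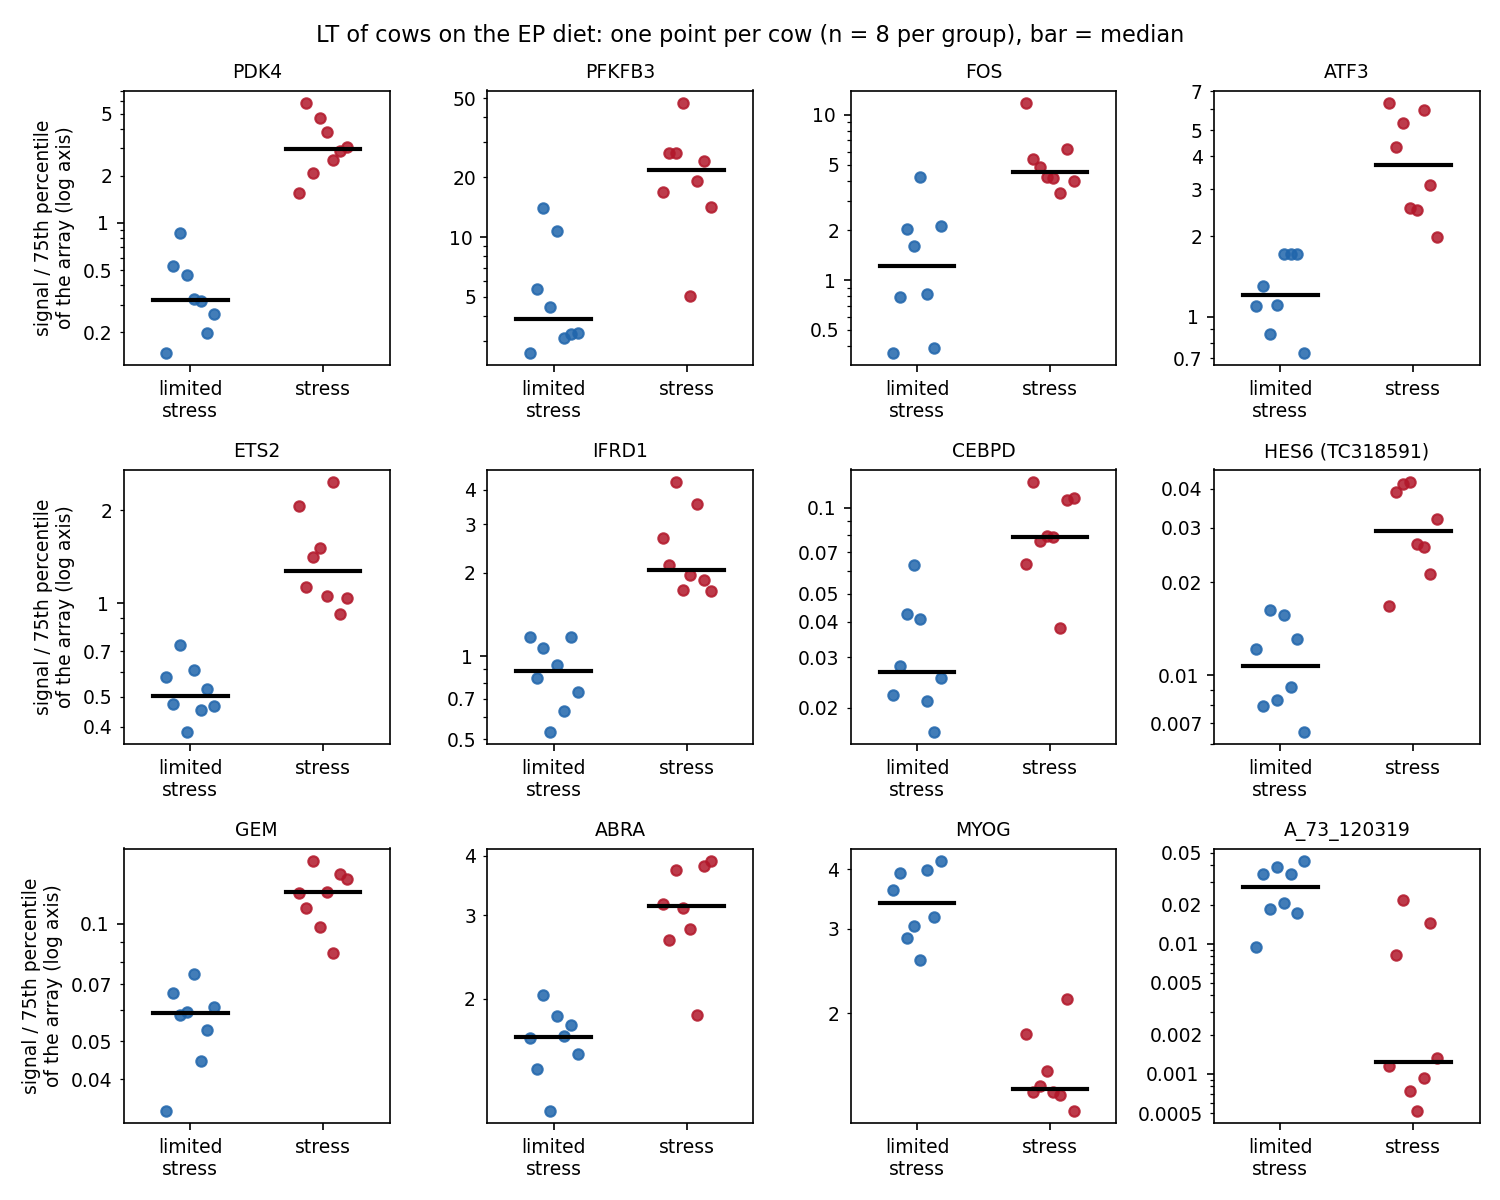
Signal of 12 transcripts in the LT of the 16 cows on the EP diet, as a multiple of the 75th percentile of each array on a log axis, with 1 point per cow, 8 cows per group and the median as a bar. The stressed cows all lay above the limited stress cows for PDK4, ATF3, ETS2, IFRD1, HES6 and GEM and all below them for MYOG, whereas the groups overlapped by at least 1 cow for PFKFB3, FOS, CEBPD, ABRA and A_73_120319.

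In the immediate early and AP-1 list, 4 of 7 tested genes were called (FOS, ATF3, ETS2 and, less firmly, FOSL1). All 7 had a log2 FC above 0, with a list median of 1.40, against 4 of 7 and 0.47 on the control diet. FOS, a subunit of AP-1, ranged from 3.36 to 11.8 (median 4.50) in the stressed and from 0.364 to 4.20 (median 1.21) in the limited stress cows. The upper limited stress cow reached the lower 4 stressed cows, so that 4 of the 8 stressed cows exceeded the whole other group. The log2 FC of FOS was 2.17 ± 0.46 (adjusted p = 0.00878). For ATF3, a transcription factor of the cellular stress response, the values went from 1.99 to 6.32 (median 3.72) under stress and from 0.734 to 1.72 (median 1.21) under limited stress. The groups did not overlap, with a log2 FC of 1.59 ± 0.38 (adjusted p = 0.0281). ETS2, a transcription factor downstream of growth signals, did not overlap either, with 0.927 to 2.47 (median 1.27) against 0.385 to 0.732 (median 0.502). Its log2 FC was 1.40 ± 0.23 (adjusted p = 0.000387), with the same 1.40 from the second probe set. FOSL1, another AP-1 subunit, was dim: its probe was well above background in 6 of 8 cows under stress and 1 of 8 under limited stress. Its log2 FC of 1.88 ± 0.52 (adjusted p = 0.0796) was called in 6 of the 16 fits that left out 1 cow, and the second set of FOSL1 probes (1.48) was not called.

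The members that were not called had wide spreads. EGR1, a zinc finger factor that was singled out after its values were seen, ranged from 0.305 to 8.61 in the stressed and from 0.175 to 0.939 in the limited stress cows. Only 3 of the 8 stressed cows exceeded all limited stress cows, and the log2 FC of 1.25 ± 0.49 had an adjusted p of 0.431. JUNB, a partner of FOS in AP-1, gave 0.67 ± 0.32 (adjusted p = 0.652) with its single probe and 0.37 with its set of 5, and JUN gave 0.20.

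Within the glucocorticoid list, 2 of 5 tested genes were called and all 5 lay above 0, with a list median of 0.48 (0.78 on the control diet, again with 5 of 5 above 0). Beside PDK4, this was CEBPD, a transcription factor of the acute phase and of glucocorticoid signalling. The CEBPD signal ranged from 0.0379 to 0.123 (median 0.0793) in the stressed and from 0.0165 to 0.0633 (median 0.0267) in the limited stress cows. All but 1 of the stressed cows were above the whole limited stress group, and the log2 FC was 1.43 ± 0.31 (adjusted p = 0.00918). A second probe that is named CEBPD by its description gave 1.74 ± 0.33, but the files place it on chr10:46754384-46754443 and the first on chr14:18786077-18786136, so that these may be different transcripts. The set Target334, shown above with the CEBPD primer, ranged from 0.461 to 1.14 (median 0.754) under stress and from 0.158 to 0.554 (median 0.231) under limited stress. Its 5 probes lay between 1.50 and 1.61 (mean 1.56 ± 0.30), and it was taken as a further CEBPD set, apart from the list counts. DUSP1, a phosphatase that turns off MAP kinases, had a log2 FC of 0.48 over its probe sets (lowest adjusted p = 0.216), MT2A, a metallothionein, 0.39 and ERRFI1 0.32.

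IFRD1, a transcriptional coregulator of muscle growth and regeneration, ranged from 1.72 to 4.27 (median 2.05) against 0.533 to 1.17 (median 0.883), without overlap. Its log2 FC was 1.46 ± 0.24 (adjusted p = 0.000326), and 1.51 ± 0.27 with 5 further probes. The kinase subunits PRKACA and PRKACB, through which cyclic AMP acts, stood at -0.06 and -0.01, its transcription factor CREB1 at -0.03 and the coactivator PPARGC1A at 0.23, none of them called. The 10 tested genes of adrenergic and cyclic AMP signalling, IFRD1 among them, had a median of 0.02.

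**Figure D2:**
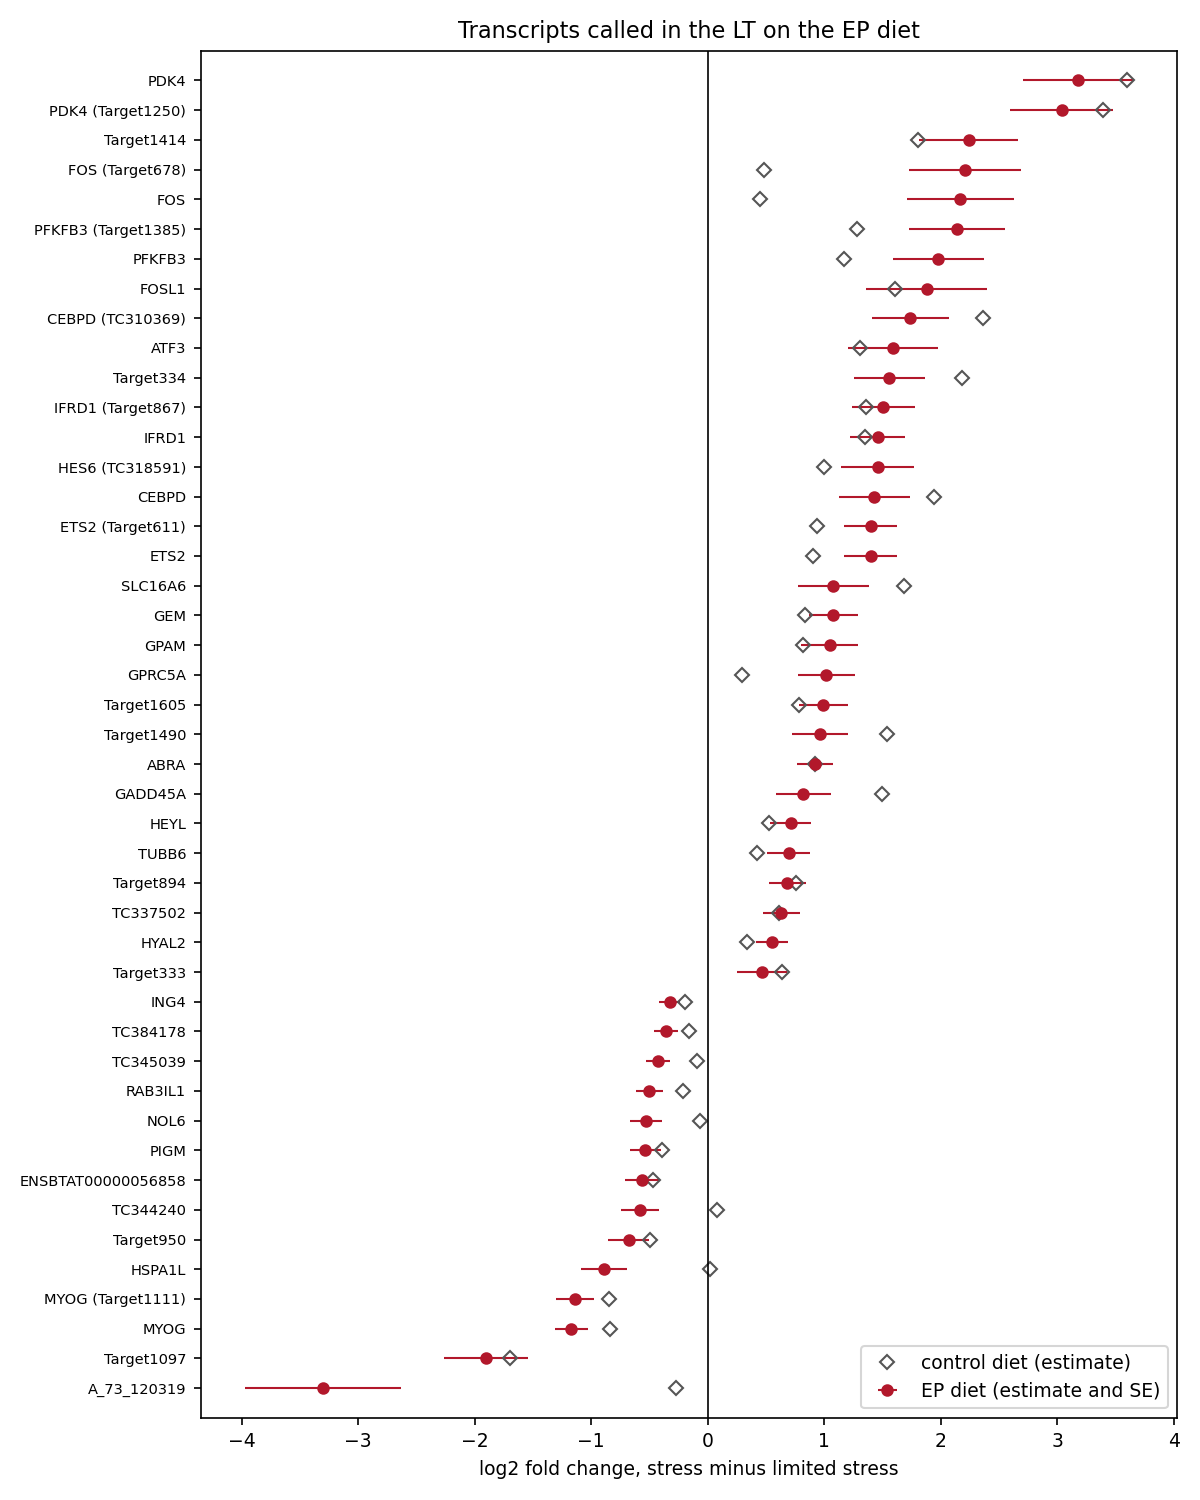
Log2 fold change of stress over limited stress for 45 of the 50 differentially expressed transcripts of the LT on the EP diet, as filled points with the SE from limma (n = 8 cows per group), and the estimate for the same transcripts in 8 and 8 cows on the control diet as open diamonds. PDK4 heads the higher transcripts, and FOS shows a wide gap between the diets. A_73_120319, at the lower end, was not well above background in 5 of the 8 stressed cows.

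The decrease with the lowest adjusted p was that of MYOG, the myogenic factor of terminal differentiation. Its signal ranged from 1.25 to 2.14 (median 1.39) in the stressed and from 2.58 to 4.16 (median 3.40) in the limited stress cows. No stressed cow reached the lowest limited stress cow. The log2 FC was -1.17 ± 0.14 (adjusted p = 8.66e-06), and -1.14 ± 0.16 with the second set of 5 probes. The MYOG call was kept in all 16 fits that left out 1 cow. None of the other 8 tested genes of myogenic regulation was called. MYOD1 had a log2 FC of -0.66 ± 0.26 (adjusted p = 0.400), with median signals of 3.02 under stress and 5.38 under limited stress. MYF6, the factor most expressed in adult fibres, had 0.56 ± 0.21 (adjusted p = 0.339), and MYF5 had -0.48 over its 3 probe sets. PAX7, which marks satellite cells, stood at -0.02. Its dimmest tested probe was well above background in 3 of 8 stressed and 6 of 8 limited stress cows. The summed signal of 5 satellite cell markers lay between 0.638 and 0.972 in the stressed and between 0.843 and 0.939 in the limited stress cows, and its part in the MYOG difference was not tested. Most of this sum came from CDH15, with medians of 0.513 under stress and 0.599 under limited stress.

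Of 8 tested genes of the Notch pathway, HES6 and HEYL were called, both higher. HES6, which opposes HES1 and favours differentiation, ranged from 0.0168 to 0.0421 (median 0.0292) under stress and from 0.00658 to 0.0162 (median 0.0107) under limited stress, without overlap. Its log2 FC was 1.46 ± 0.32 (adjusted p = 0.00964). HEYL, a transcriptional repressor induced by Notch, rose by 0.71 ± 0.18 (adjusted p = 0.0384), with 1.02 to 1.85 in the stressed and 0.670 to 1.29 in the limited stress cows. The ligand DLL4 had -0.82 ± 0.24 and missed the threshold (adjusted p = 0.103). HES1 did not separate the groups, with medians of 0.293 and 0.277 and a log2 FC of -0.04 ± 0.25.

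From the list of actin and mechanosensing genes, 3 of 7 tested genes were called, all higher, and the list median was 0.23. ABRA, an actin-binding protein of striated muscle, ranged from 1.85 to 3.90 (median 3.13) in the stressed and from 1.16 to 2.03 (median 1.66) in the limited stress cows. It exceeded all limited stress cows in 7 of the 8 stressed cows, with a log2 FC of 0.92 ± 0.15 (adjusted p = 0.000486). GEM, a small GTPase that restrains calcium channels, went from 0.0332 to 0.0742 under limited stress to between 0.0843 and 0.145 under stress. Its groups did not overlap (log2 FC 1.08 ± 0.21, adjusted p = 0.00329). TUBB6, a beta-tubulin, had 0.70 ± 0.18 (adjusted p = 0.0559) and was called in 10 of the 16 fits without 1 cow. Its second probe set (0.53) was not called, with probes between an adjusted p of 0.0513 and 0.942.

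In the matrix list, 18 of 21 tested genes lay above 0, with a median of 0.30, whereas on the control diet 10 of 21 did, with a median of -0.01. HYAL2, which cleaves hyaluronan, rose by 0.55 ± 0.14 (adjusted p = 0.0322), with 0.608 to 1.07 (median 0.760) in the stressed and 0.419 to 0.722 (median 0.504) in the limited stress cows. In 4 of the 8 stressed cows it exceeded all limited stress cows. The largest value of the list, that of the proteoglycan SPOCK2 (1.53 ± 0.48), did not pass (adjusted p = 0.167). THBS1, a matrix glycoprotein, had non-overlapping groups at 0.199 to 0.256 against 0.0709 to 0.180 and a log2 FC of 0.80 ± 0.25, with an adjusted p of 0.164. The fibroblast markers, whose part in these values was not tested, all lay above 0 as well, between 0.02 and 0.47, and their summed signal spanned 2.90 to 6.79 in the stressed and 1.37 to 8.22 in the limited stress cows.

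Genes of lipid metabolism gave 1 call in each direction among 12 tested. GPAM, the acyltransferase of the first step of glycerolipid synthesis, ranged from 0.167 to 0.521 (median 0.384) in the stressed and from 0.118 to 0.372 (median 0.161) in the limited stress cows. The groups overlapped in 3 stressed cows, with a log2 FC of 1.05 ± 0.25 (adjusted p = 0.0216). PIGM, a mannosyltransferase of the membrane anchor of surface proteins, fell by 0.53 ± 0.14 (adjusted p = 0.0409), although it was 0.05 higher within 1 of the 4 slides. FASN, SCD and DGAT2, enzymes of fat synthesis, stood at 0.18, 0.18 and 0.34. Outside that list, SLC16A6, of the monocarboxylate transporter family, had 1.08 ± 0.30 (adjusted p = 0.0878). It was called in only 5 of the 16 fits without 1 cow and stood at -0.16 within 1 slide. GPRC5A, an orphan receptor, had 1.02 ± 0.25 (adjusted p = 0.0296), from a probe well above background in 7 of 8 stressed and 4 of 8 limited stress cows.

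Of 6 tested growth arrest genes 1 was called. In this list 5 of 6 lay above 0 with a median of 0.51, against 4 of 6 and 0.65 on the control diet. GADD45A, an inducible stress sensor that slows the cell cycle, ranged from 0.666 to 1.82 in the stressed and from 0.544 to 1.41 in the limited stress cows (log2 FC 0.82 ± 0.23, adjusted p = 0.0977), and the call was kept in 3 of the 16 fits without 1 cow. BTG1 and CDKN1A, both antiproliferative, had 0.63 and 0.65 and were not called.

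**Figure D3:**
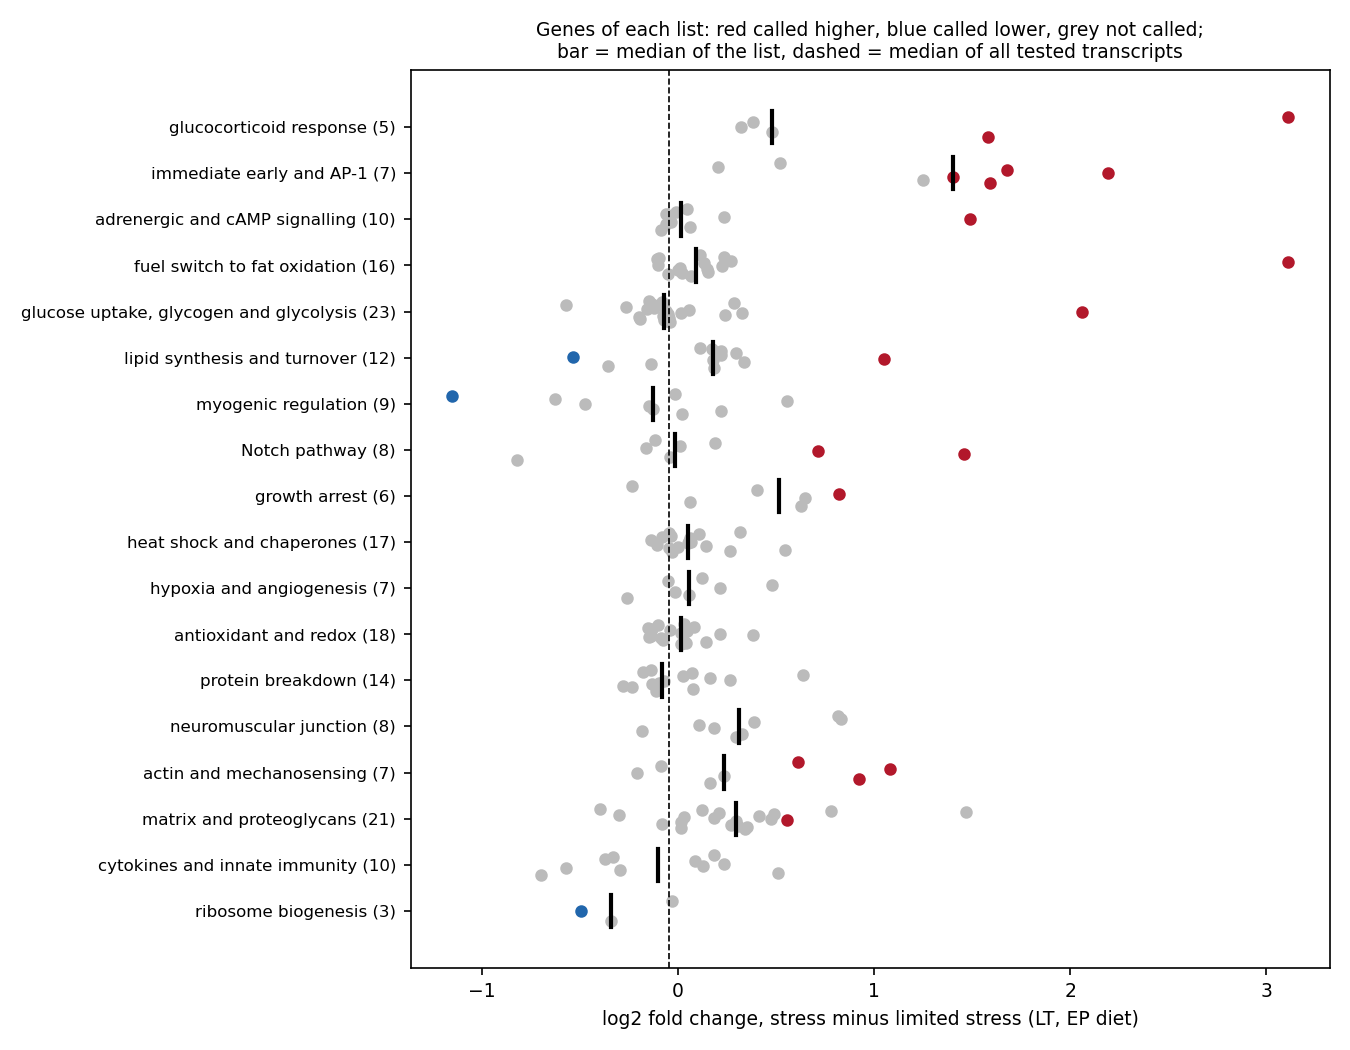
Log2 fold change of stress over limited stress in the LT on the EP diet for each tested gene of 18 gene lists (number of tested genes in brackets, 1 gene each not drawn in the adrenergic and matrix lists), with called genes in red (higher) or blue (lower), the others in grey, the list median as a bar and the median of all tested transcripts (-0.04) as a dashed line. The 7 genes of the immediate early list lie to the right of 0, while the antioxidant and heat shock lists straddle it.

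No call was made in several lists that a stress and an antioxidant diet bring to mind. The 18 tested genes of antioxidant and redox defence lay between -0.15 and 0.39 with a median of 0.01, and the lowest adjusted p was 0.699. Catalase (CAT), superoxide dismutase SOD1, the glutathione peroxidase GPX4 and the quinone reductase NQO1 stood at 0.01, -0.10, -0.08 and 0.21. Among the 17 heat shock and chaperone genes the median was 0.05. DNAJB1, a cochaperone, had the highest value there at 0.55 (lowest adjusted p = 0.504), and HSPA1A, the classical inducible chaperone, had 0.14. HSPA1L, of the same chaperone family but outside the list, was called lower and is described below. None was called of 7 genes of hypoxia and angiogenesis (VEGFA -0.05, HIF1A 0.21), of 14 of protein breakdown (CAPN1 -0.11), of 10 of cytokines and innate immunity (median -0.10) or of 8 of the neuromuscular junction. In the last list 7 of 8 genes lay above 0 (5 of 8 on the control diet), led by LRP4 (0.83, adjusted p = 0.231) and MUSK (0.82, adjusted p = 0.153), the receptor complex that gathers acetylcholine receptors. All gene lists cover only what the array measured, which for the antioxidant list was 18 of 44 genes. For the glucocorticoid list it was 5 of 26 and for the immediate early list 7 of 25.

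The unnamed transcripts included several of the largest differences. Target1414 ranged from 1.25 to 3.58 (median 2.70) in the stressed and from 0.222 to 1.52 (median 0.472) in the limited stress cows. Its 5 probes gave log2 FCs between 2.07 and 2.32 (mean 2.24 ± 0.42, adjusted p between 0.00137 and 0.00329). Target1490 (0.97 ± 0.24) and Target894 (0.69 ± 0.16) were higher in stressed cows without overlap of the groups. Target1605 and TC337502 were higher by 0.99 ± 0.21 and 0.63 ± 0.16. Target333 was called at 0.47 ± 0.21 although 1 of its 5 probes had an adjusted p of 0.982, and in only 4 of the 16 fits without 1 cow.

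Among the lower transcripts, Target1097 did not overlap, with 0.0163 to 0.0599 (median 0.0278) in the stressed and 0.0685 to 0.189 (median 0.102) in the limited stress cows. Its 5 probes lay between -1.96 and -1.86 (mean -1.90 ± 0.36, adjusted p between 0.000387 and 0.0472). The dimmest of these probes was well above background in 1 of 8 stressed and 7 of 8 limited stress cows.

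Probe A_73_120319 was also called lower (adjusted p = 0.00484). Its fitted log2 FC of -3.30 ± 0.67 takes in 5 values that were not well above background and is no measured size. It ranged from 0.00935 to 0.0432 (median 0.0274) in the limited stress cows, where all 8 were well above background. Under stress it was well above background in 3, at 0.00816, 0.0143 and 0.0216, and between 0.000521 and 0.00132 in the other 5, where it was not well above background. Both muscles of a cow were alike in this. In the ST (Semitendinosus), a hind muscle, the same 3 stressed cows were above background and the same 5 were not, and both muscles gave the same state in all 8 cows of each condition. On the control diet, 7 of 8 stressed and 8 of 8 limited stress cows were above background, again alike in both muscles, and the log2 FC in the LT was -0.27. Stress, diet and a difference between individual cows that lies across the groups cannot be told apart for this probe.

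The other lower genes changed less. HSPA1L, a close relative of HSPA1A, fell by 0.89 ± 0.20 (adjusted p = 0.0143), with 0.00404 to 0.00751 in the stressed cows, 6 of 8 of them well above background, and 0.00712 to 0.0162 in the limited stress cows. RAB3IL1, an exchange factor for small GTPases of vesicle traffic, fell by 0.50 ± 0.11 (adjusted p = 0.0172) without overlap. NOL6, a nucleolar protein of ribosome biogenesis, fell by 0.53 ± 0.14 (adjusted p = 0.0575), was called in 9 of the 16 fits without 1 cow, and its second probe set (-0.46) missed the call. ING4, a chromatin reader, fell by 0.32 ± 0.09 (adjusted p = 0.0878) and was called in 4 of these fits. Of the remaining lower transcripts, none of which has a symbol, Target950 (-0.68 ± 0.18), TC345039 (-0.43 ± 0.10), TC384178 (-0.36 ± 0.10), TC344240 (-0.58 ± 0.17) and ENSBTAT00000056858 (-0.56 ± 0.15) had groups that overlapped. Of the 16 fits without 1 cow, TC384178 and TC344240 were called in 3 each and ENSBTAT00000056858 in 6. The stressed cows were less often well above background for TC344240 (5 of 8 against 8 of 8) and for the dimmest probe of Target950 (7 of 8 against 8 of 8).

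Some cows were often the highest or the lowest of their group. In the 36 higher transcripts, several genes count with 2 probe sets. Over these 36, limited stress cow277 was the highest of its group 13 times and cow286 9 times, and they lay on average 0.45 and 0.30 above their group mean on the log2 scale. Cow267 was the lowest of the limited stress cows 15 times, with an average of -0.49, and averaged -0.11 over the 14 lower transcripts. It was the only limited stress cow on slide 5, and its array had the lowest share of probes well above background in its group (75.9%). The part of array and slide in these ranks was not tested. Among the stressed cows the averages ran from -0.26 in cow299 to 0.17 in cow269, and cow303 was the lowest 11 times. Without cow267, 37 transcripts were called, all of them among the 50, and without cow269 39 were called.

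Whether the antioxidants changed the answer to stress was asked by the interaction of diet and stress in the LT. No transcript passed it in limma (0 of 4311, 0.0%), and 276 of 10441 probes had an unadjusted p under 0.05 (2.64%). Nor did limma call any transcript for diet among the limited stress cows (0 of 4311, 0.0%), where 111 probes or 1.06% had an unadjusted p under 0.05. On the control diet, 47 transcripts were called for stress (1.09%), 34 higher and 13 lower. Of these, 24 were called on the EP diet in the same direction, which is 48.0% of the EP list and 51.1% of the control list. The 50 transcripts called on the EP diet had the same sign on the control diet in 48 cases (66.4% over all transcripts) and a larger size on the EP diet in 38, a count that is raised by having chosen them on the EP diet.

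For ABRA, PDK4, IFRD1 and MYOG the estimates on the diets had the same sign. The interval of the difference took in 0 for each, which does not show that the diets were equal. ABRA had 0.92 on both, with an interval of the difference (EP minus control, 95%) from -0.44 to 0.44. PDK4 had 3.18 on the EP and 3.60 on the control diet, and the interval ran from -1.78 to 0.94. IFRD1 had 1.46 and 1.35 (difference -0.56 to 0.79) and MYOG -1.17 and -0.84 (difference -0.73 to 0.08). The interval was widest for PDK4, and that of MYOG lay mostly below 0.

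Wide differences between the diets were not called after adjustment, all at an adjusted p of 1.0. The called transcripts below were picked for their large difference between the diets, and EGR1 and JUNB after their values were seen. This choice raises the differences and lowers their unadjusted p-values, which are given as a description. FOS rose by 2.17 on the EP diet and had 0.45 on the control diet, where it was not called. The median FOS signal under stress was 4.50 on the EP and 5.18 on the control diet. Under limited stress the FOS medians were 1.21 and 2.65, so the diets lay further apart there. Its difference was 1.72 (0.38 to 3.05, unadjusted p = 0.0133). EGR1 had 1.25 on the EP and -1.11 on the control diet, a difference of 2.36 (0.94 to 3.79, unadjusted p = 0.002). For JUNB the values were 0.67 and -0.60 (difference 1.27, unadjusted p = 0.00845), but its set of 5 probes gave 0.77 (-0.10 to 1.63, unadjusted p = 0.445). The EP values of FOS, EGR1 and JUNB were largest within slide 5, with its 1 limited stress cow. There FOS had 4.46, against 1.31 to 2.44 within the other slides. EGR1 had 3.92 and the single JUNB probe 2.08 there, against 0.13 to 1.43 and 0.20 to 0.64 within the other slides. HSPA1L fell on the EP diet and had 0.03 on the control diet (difference -0.91, from -1.48 to -0.34, unadjusted p = 0.00278), and A_73_120319 differed by a fitted -3.03 (-4.96 to -1.10, unadjusted p = 0.00314), which takes in the same 5 values near background. In the other direction, HES1 was called on the control diet (-0.89) and not on the EP diet (-0.04), as were MPPED2 (-1.15 and 0.00), the oxytocin receptor OXTR (-1.55 and -0.06) and the peptide hormone CCK (1.19 and 0.20). OXTR and CCK were dim. On the EP diet OXTR was well above background in 6 of 8 stressed and 8 of 8 limited stress cows, and CCK in 4 of 8 and 6 of 8. The HES1 medians were 0.293 (EP) and 0.310 (control) under stress and 0.277 and 0.614 under limited stress. GADD45A was called on both diets, with 1.50 on the control and 0.82 on the EP diet. The fat markers ADIPOQ, PLIN1, FABP4 and CIDEA, none of them called, lay between 0.26 and 0.29 on the EP diet and had a median of -0.71 on the control diet, and their part in these differences was not tested.

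In the ST of the same cows all 50 transcripts had the same sign as in the LT, as had 74.2% of all 4230 transcripts tested in both. The muscles share their cows and the 50 were chosen on the LT, so this is a description. In the ST 24 of them were called, and 33 of 4246 ST transcripts were called in all (0.777%). The interaction of muscle and stress on the EP diet called none of 4230 transcripts in limma (0.0%), with 66 of 10254 probes at an unadjusted p under 0.05 (0.644%). That fit did not pair the 2 muscles of a cow, so its error takes in the spread between cows. With the cow as a replicate block (consensus correlation 0.404) no transcript was called either. When the 32 arrays of the EP diet were fitted alone, again unpaired, 2 transcripts were called, MYF6 (set Target1086) and the unnamed Target1864. Neither was called in the LT or the ST by itself, and their values were 0.55 and 0.53 in the LT and -0.23 and -0.29 in the ST. GPAM had 1.05 in the LT and 0.31 in the ST, whereas FOS (2.17 and 2.25), IFRD1 (1.46 and 1.55) and ETS2 (1.40 and 1.47) were close.

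Across the 8 stressed cows the level in the LT and in the ST was compared for 6 genes. PDK4 gave a Pearson r of 0.793 (exact permutation p = 0.0195, adjusted 0.0494 over the 6) and a Spearman coefficient of 0.69 (exact permutation p = 0.0694), and r was 0.719 without the 2 cows farthest from the median. For PFKFB3 r was 0.765 (exact permutation p = 0.0122, adjusted 0.0494; Spearman 0.762, exact permutation p = 0.0368), and 0.567 without the 2 cows. CEBPD had an r of 0.748 (exact permutation p = 0.0247, adjusted 0.0494; Spearman 0.81, exact permutation p = 0.0218) and 0.508 without them. ETS2 had 0.665 (exact permutation p = 0.0661; Spearman 0.857, exact permutation p = 0.0107), MYOG 0.253 (exact permutation p = 0.549; Spearman 0.31, exact permutation p = 0.462) and FOS -0.152 (exact permutation p = 0.669; Spearman -0.357, exact permutation p = 0.389). Each slide held 2 stressed cows of the LT, too few for values within slides. The stressed cows that shared LT slide 5, 6 or 7 also shared a slide in the ST. A slide difference and a difference between cows thus cannot be told apart in these coefficients.

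**Figure D4:**
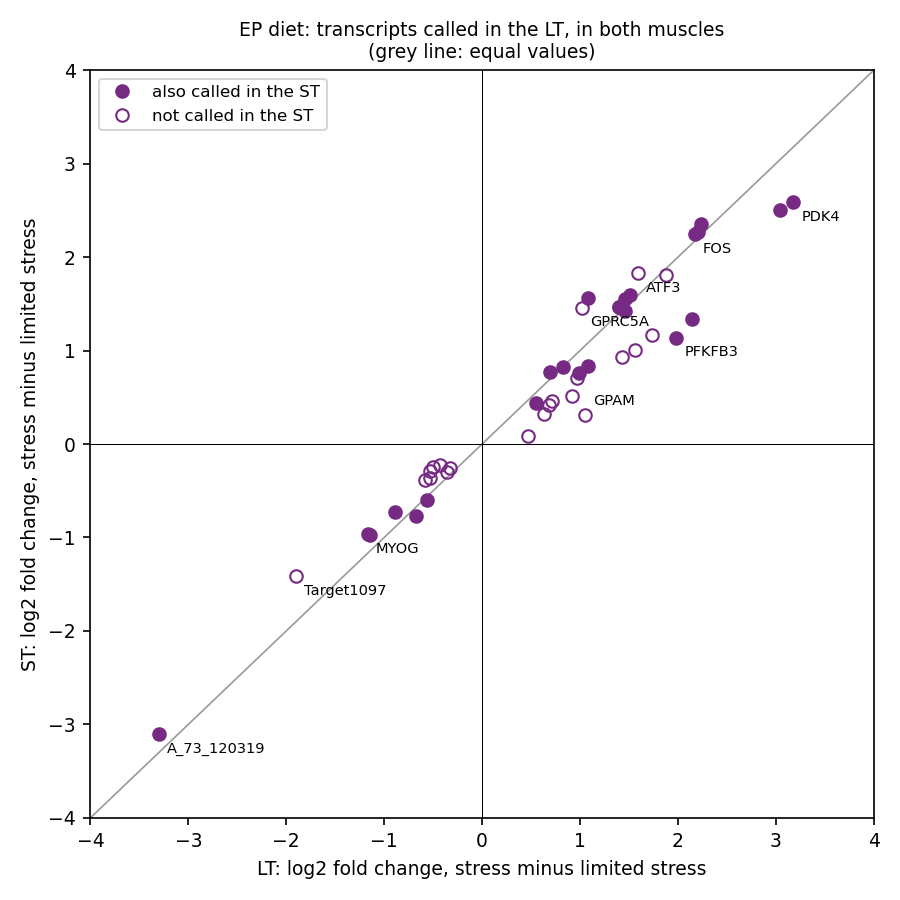
Log2 fold change of stress over limited stress on the EP diet in the LT (horizontal) and in the ST (vertical) of the same 16 cows for 45 of the 50 transcripts called in the LT, filled where the ST call passed as well. All 45 points lie in the quadrants of equal sign, with FOS near the line of equal values and PFKFB3 and GPAM below it.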

How the data were processed

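RNA of the LT and ST of 32 cows was hybridised to single-colour Agilent arrays (custom bovine 60-mer design). The intensities deposited by the authors are Feature Extraction (10.1.1.1) processed signals, background-subtracted and per the file headers not scaled between arrays; the deposited series table held the same values for all 64 arrays. Each array was divided by the 75th percentile of its non-control spots, because the 536 features that the files mark as controls were near background (the study's methods scale by control probes, of which they count more, and whether these are the same is not known), and log2 transformed. Outlier spots were left out and duplicate spots averaged. A probe was tested if well above background in 11 or more of the 32 LT arrays. The means of 4 groups were fitted with limma 3.58.1 (R 4.3.3); tests are two-sided, with Benjamini-Hochberg adjustment over all tested probes. A transcript's log2 FC and SE are means over its probes. Of 1945 custom probe sets, 876 took the name of a gene with which they shared at least 25 bases, and 4 matching several genes stayed unnamed; HES6, LRP4, CDIPT and the second CEBPD probe were named from descriptions in the files, and Target334 was tied to CEBPD afterwards by a qPCR primer. RefSeq accessions gave the current symbol of 1842 of 3504 named transcripts. Arrays were grouped by the labels. Named were the 12 largest changes in each direction, up to 4 genes per list with the lowest adjusted p, the study's transcription factors and the largest diet differences; EGR1, JUNB and other list members were chosen after their values were seen. The members and lists were chosen with earlier results of these data known. Precision is limited by the number of arrays. The fit was tested on simulated data. Alternatives were other scalings, filters, blocks of slide, scan day or cow, fewer arrays, and fits without each cow. Some of the differentially expressed transcripts are not reported here by name.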

Additional observations from a re-analysis of the deposited data

Results flagged for a closer look

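In 4 of 90 groups of 8 cows checked over 45 of the 50 differentially expressed transcripts, 1 cow stood apart from the other 7 by Dixon's criterion (gap over range above 0.526), and chance gives about 4.5. The gap over range was taken on log2 signals, while the signals below are not log2 transformed. GPAM was highest in limited stress cow280 (0.372 against 0.192 in the next cow, gap over range 0.579). Target894 was lowest in limited stress cow304 (0.0478 against 0.0638, 0.532). TC344240 was lowest in limited stress cow277 (0.00549 against 0.00713, 0.577), and TC384178 in stressed cow287 (0.339 against 0.443, 0.563).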

How the results depend on the processing

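Scaling to the control features, which moved the median probe difference from -0.04 to -0.37, called 15 transcripts (8 higher and 7 lower, 13 of them among the 50) on the EP diet, and 16 for the control diet. Without scaling 39 were higher and 8 lower. The 16 arrays of a diet fitted alone gave 76 (EP; 55 higher and 21 lower, 45 of the 50 kept) and 27 (control), and the 32 EP arrays alone gave 2 transcripts for muscle by stress. The slide as a block gave 69, of which 26 were lower. The cow number pairs the 2 muscles of a cow, and the cow as a replicate block (consensus correlation 0.404) gave 68 (42 higher and 26 lower), with 44 of the 50 kept, and no call in any interaction. Fits without 1 cow gave 37 to 53 transcripts, 28 to 36 higher and 9 to 20 lower, with 9 lower without limited stress cow267 or cow275 or stressed cow269. Of the 50, 35 stayed called in every such fit. Normexp with quantile scaling gave 46 and no filter 44. SLC16A6 was -0.155 within slide 8 and PIGM 0.0473 within slide 7. The causes were not tested. The diet by stress and diet counts stayed at 0 in every alternative run.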
